A study of Homo sapiens with 9 samples.

Results

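The genes described here write or erase methyl groups on histone lysines: 37 genes that encode the histone lysine demethylases, the methyltransferases of histone H3 lysine 4 (H3K4) and the subunits of their complexes. They were chosen by gene name and role, with earlier results of these data known. Of these, 34 had at least 1 probe among the 18850 gene symbols measured, with 56 probes of 48799 in all, and 26 passed the detection filter and were tested among 13076 features. RNA came from MDA-MB-231, an established human breast cancer line, taken 72 h after the cells were transfected with an siRNA (a short RNA that degrades its target transcript), and was measured on Illumina bead arrays. KD1 cells received the first siRNA against KDM5A (also called RBP2 or JARID1A), KD2 cells the second one, and Luc cells a control siRNA against luciferase, with 3 arrays in each group. All 9 arrays thus come from transfected cells of 1 cell line. Whether the replicates were separate cultures is not in the labels, so the p-values rest on a spread between arrays that may be purely technical.

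Methylation of H3K4 marks active promoters and enhancers. It is laid down by 6 related enzymes, KMT2A, KMT2B, KMT2C, KMT2D, SETD1A and SETD1B, each of which works in a complex built on the shared subunits WDR5, ASH2L, RBBP5 and DPY30. The marks are removed by the KDM5 enzymes, which use oxygen, iron and 2-oxoglutarate in a Jumonji (JmjC) domain, and by KDM1A and KDM1B, which are flavin-dependent amine oxidases. Other JmjC enzymes act on methylated H3K9, H3K27 or H3K36, marks found in silent chromatin, at Polycomb targets and along transcribed genes. KDM5A, the target of both siRNAs, is one of the H3K4 demethylases. The comparisons ask whether transcripts of its relatives and of the opposing enzymes differ after the siRNAs.

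Between 29.8% and 35.9% of probes were detected on an array (detection p under 0.05), and median intensities ran from 117.5 to 127.7. By the letters in the sample titles, KD1 arrays sat at slide positions G, I and K, and KD2 and Luc arrays at A to F, so position and KD1 cannot be told apart. Of 8 markers of mesenchymal-like breast lines, 7 were detected on every array, VIM, CD44 and AXL among them, and SPARC on none. Their summed level, as background-corrected linear intensity, was 61860 to 62990 in KD1 and 76160 to 77580 in KD2, against 75020 to 76510 in Luc. The luminal markers ESR1, PGR and FOXA1 and the fibroblast markers COL1A2, COL3A1 and LUM were detected on no array. KRT19, EPCAM and ERBB3 of the luminal list were detected on every array, GATA3 on 4 of 9 and CDH1 on 2 of 9. PDGFRB of the fibroblast list was detected on 5 of 9, all 3 KD2 arrays among them, DCN on 2 of 9 and COL1A1 on 1 of 9. The summed luminal level was 1619 to 1742 in KD1 and 2565 to 3724 in KD2, against 2231 to 2700 in Luc. Fibroblast markers summed to 60.16 to 79.18 in KD1 and 112.7 to 151.5 in KD2, against 73.74 to 86.1 in Luc. Of 5 leukocyte markers with a probe, CD68 and HLA-DRA were detected on every array, CD3E on none, PTPRC on 1 of 9 and CD14 on 7 of 9. The summed leukocyte level was 7068 to 8553 in KD1 and 6297 to 7221 in KD2, against 3562 to 3846 in Luc. The markers did not move alike: mean log2 intensities of HLA-DRA were 12.09 in KD1 and 12.02 in KD2, against 10.97 in Luc, and those of CD14 5.03 in KD1 (detected on 1 of 3 arrays) and 5.86 in KD2, against 6.18 in Luc. The part of these levels in the results was not tested.

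The brightest probe of each gene was used, and detection sorted the members before any comparison. All 6 methyltransferases, all 4 shared subunits and all 5 complex-specific subunits (MEN1, CXXC1, HCFC1, NCOA6 and PAXIP1) passed the filter of detection on at least 3 arrays. Among the demethylases, 11 of 22 passed. KDM5C, another H3K4 demethylase, had log2 intensities of 5.02, 5.08 and 4.90 in KD1 and 5.22, 5.16 and 5.07 in KD2, against 4.72, 4.81 and 5.19 in Luc, near the detection limit. It was detected on 0 of 3 KD1, 1 of 3 KD2 and 1 of 3 Luc arrays, and KDM1B on no array. KDM4B and KDM8 were likewise detected on no array, KDM4C and PHF8 on 2 of 9 each, and KDM4D and KDM6B on 1 of 9 each. These 8 genes were not tested. KDM5A, KDM2A and KDM7A are not analysed here, because no probe annotation used carried their symbols, so how far KDM5A was depleted is not reported. Of the 26 tested members, 23 were detected on every array; the exceptions were KDM4A, SETD1B and KMT2D.

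**Figure D1:**
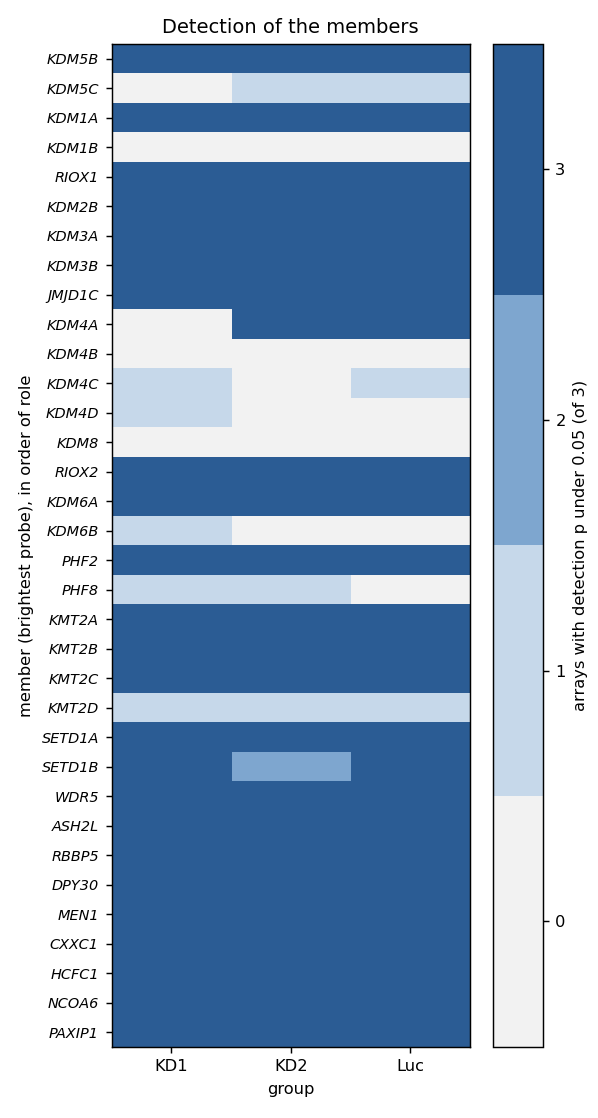
Number of arrays, of 3 in each group, on which the brightest probe of each of the 34 members with a probe was detected, with groups across and members down in order of role. KDM4A was detected on 3 of 3 KD2 and 3 of 3 Luc arrays and on 0 of 3 KD1 arrays.

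With KD1 against Luc, 5 of the 26 tested members passed the test (Benjamini-Hochberg adjusted p under 0.05 over all features, limma): KDM5B and PAXIP1 rose, and KDM4A, ASH2L and DPY30 fell. That is 19.2% of the members, beside 16.5% of all features (7.23% higher and 9.27% lower). With KD2 against Luc, 6 members passed: KDM3B rose, and KDM4A, RIOX2, KMT2C, WDR5 and DPY30 fell. This is 23.1%, beside 22.4% of all features (10.9% higher and 11.5% lower). Between the siRNAs, KD1 against KD2, 4 members passed, KMT2C and WDR5 higher and KDM4A and ASH2L lower with KD1, or 15.4% beside 27.4% of all features (13.3% higher and 14.1% lower). Each share of called members against Luc was thus near that of all features. The 2 comparisons with Luc share the same 3 control arrays. The KD1 count was 1 or 2 without KD1 replicate 1, KD1 replicate 3 or any Luc array, and the KD2 count 1 to 3 without KD2 replicate 1, KD2 replicate 2, Luc replicate 1 or Luc replicate 2. Calls among all features then ran from 1381 to 1684 with KD1 (2157 in the main fit). With KD2 they ran from 2025 to 2294 (2927 in the main fit).

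The median log2 difference over the tested members was 0.153 with KD1, beside 0.0048 over all features, and 0.0255 with KD2, beside -0.0012. The median absolute difference was 0.246 with KD1 and 0.267 with KD2, beside 0.251 and 0.279 over all features. Arrays of the compared groups did not overlap for 10 members with KD1 (6 above and 4 below the Luc arrays), beside 35.1% of all features (16.8% above and 18.3% below), and for 11 members with KD2 (5 above and 6 below), beside 40.2% (19.8% above and 20.4% below). Between KD1 and KD2 they did not overlap for 10 members (7 above and 3 below), beside 42.2% of all features (21.1% above and 21.1% below). Lower and higher calls depended on scaling. With each array centred on the median of all its probes, most of which are undetected, the calls among members were 0 higher and 4 lower with KD1 and 0 higher and 6 lower with KD2, and those among all features 366 higher and 2360 lower with KD1, in place of 945 and 1212, and 907 higher and 1953 lower with KD2, in place of 1423 and 1504. Under that scaling the median difference of all features with KD1 was -0.186.

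**Figure D2:**
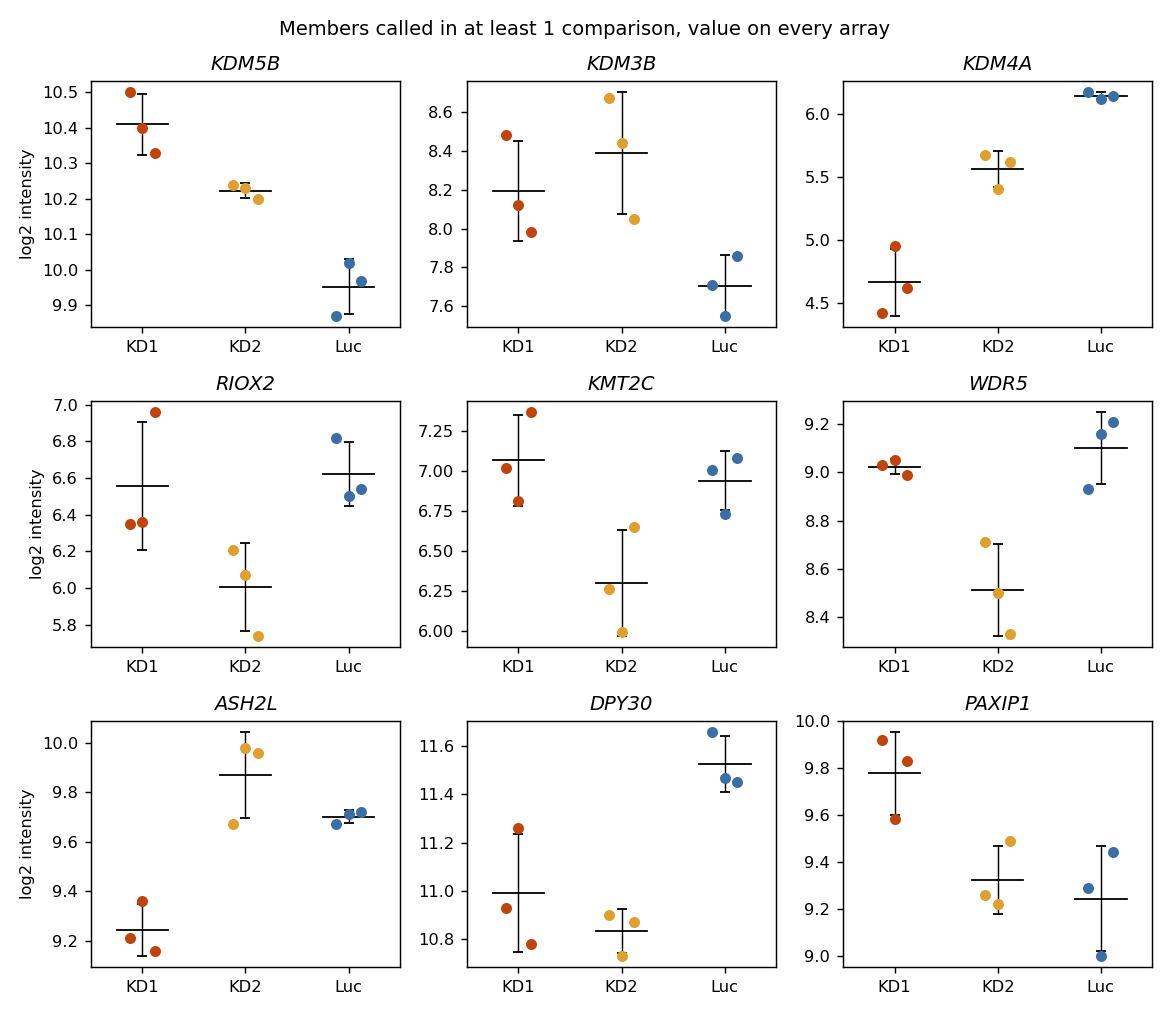
Log2 intensity (background-corrected and quantile-normalized) of the 9 members called in at least 1 comparison, each point an array, with the mean and SD of each group of 3 arrays and groups in the order KD1, KD2, Luc. The vertical axes differ between genes and do not start at 0. The 3 KD1 arrays of KDM4A lie between 4.42 and 4.95, below all KD2 and Luc arrays.

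Promoter sequences of 3 called members are shown because the DNA-binding ARID domain of KDM5A is known to recognise CCGCCC, and these genes hold none, some and many copies. The 250 bases before the start of each gene are from RefSeq, build GRCh38.p14: chr1:43649899-43650148 on the + strand for KDM4A, chr1:202808422-202808671 on the - strand for KDM5B and chr7:152436004-152436253 on the - strand for KMT2C. They run 5′ to 3′, and capitals mark CCGCCC on either strand (GGGCGG on the strand shown), with overlapping copies counted. The same letters form the GC box bound by SP1.
KDM4A: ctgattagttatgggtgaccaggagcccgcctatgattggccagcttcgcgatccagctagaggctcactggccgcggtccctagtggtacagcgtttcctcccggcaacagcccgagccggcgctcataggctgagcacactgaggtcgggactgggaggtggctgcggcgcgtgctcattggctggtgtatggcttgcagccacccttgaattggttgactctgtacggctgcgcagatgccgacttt
KDM5B: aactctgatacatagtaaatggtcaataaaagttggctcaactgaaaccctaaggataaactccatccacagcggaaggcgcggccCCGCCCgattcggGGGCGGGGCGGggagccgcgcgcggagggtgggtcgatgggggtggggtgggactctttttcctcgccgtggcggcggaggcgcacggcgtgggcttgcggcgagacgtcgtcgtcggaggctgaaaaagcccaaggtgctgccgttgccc
KMT2C: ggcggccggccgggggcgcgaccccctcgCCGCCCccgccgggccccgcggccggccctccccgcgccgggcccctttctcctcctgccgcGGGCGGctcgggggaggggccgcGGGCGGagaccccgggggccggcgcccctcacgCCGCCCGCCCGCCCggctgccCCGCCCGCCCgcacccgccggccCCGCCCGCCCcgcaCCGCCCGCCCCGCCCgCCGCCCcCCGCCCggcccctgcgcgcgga
KDM4A held 0 copies, with 17 CpG dinucleotides and 61.2% G and C. KDM5B held 3 copies, with 27 CpGs and 64% G and C. KMT2C held 15 copies, with 48 CpGs and 92% G and C. Over the members, 29 matched the table, with 43 promoters among them. Some members had several promoters, and the called members ASH2L, DPY30, PAXIP1 and RIOX2 had none in the table. Of the 43 promoters, 30 (69.8%) held at least 1 copy, beside 42.6% of all 35116 promoters in the table. These shares count promoters and not genes, and do not describe the called members. CpGs numbered 23 in the median member promoter and 11 in the median of all, and the median G and C content was 64% and 58%.  A match in these letters is a description of the sequence and not of binding.

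Among the 3 tested enzymes of the H3K4 demethylase group, KDM5B was the only one to pass the test, with KD1. Beside it, 16.5% of all features passed with KD1 and 22.4% with KD2. KDM5B, the closest relative of KDM5A measured here, had log2 intensities of 10.50, 10.40 and 10.33 on the KD1 arrays and 10.24, 10.23 and 10.20 on the KD2 arrays, against 9.87, 10.02 and 9.97 on the Luc arrays. Every KD1 array was above every KD2 array, and every KD2 array above every Luc array. The difference was 0.45 with KD1 (SE 0.12, 1.37-fold, adjusted p = 0.0237) and 0.27 with KD2 (95% interval 0.01 to 0.52, adjusted p = 0.122). The KD1 call was lost when KD1 replicate 1, KD1 replicate 2 or any Luc array was left out (adjusted p 0.0507 to 0.0793), and with centring on the median of all probes, where the difference was 0.23 (adjusted p = 0.315). On the deposited values the KDM5B difference with KD2 was 0.23 and passed (adjusted p = 0.0163). A second KDM5B probe was detected on 1 of 9 arrays.

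KDM1A, or LSD1, the amine oxidase of the CoREST complex, had 10.22, 9.91 and 10.04 in KD1 and 10.00, 10.41 and 10.16 in KD2, against 9.85, 9.91 and 9.95 in Luc. Its differences were 0.16 with KD1 (95% interval -0.16 to 0.47) and 0.29 with KD2 (-0.03 to 0.61), and neither passed (adjusted p = 0.511 and 0.179). RIOX1, a JmjC protein reported to act on H3K4 and H3K36 and on a ribosomal protein, had 7.68, 6.78 and 7.69 in KD1 and 8.13, 7.73 and 7.95 in KD2, against 7.71, 7.65 and 7.63 in Luc. One KD1 array was low and the other KD1 arrays lay at the Luc level, while the KD2 arrays lay above Luc. The RIOX1 differences, -0.28 with KD1 and 0.27 with KD2, did not pass (adjusted p = 0.462 and 0.441).

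KDM4A, a demethylase of trimethylated H3K9 and H3K36, was lower with both siRNAs. KDM4A had log2 intensities of 4.42, 4.95 and 4.62 in KD1 and 5.67, 5.40 and 5.62 in KD2, against 6.17, 6.12 and 6.14 in Luc. The raw intensities were 102, 123 and 113 in KD1 and 159, 137 and 144 in KD2, against 176, 187 and 172 in Luc, which is close to the background of these arrays. The 3 groups did not overlap. Since KDM4A was detected on no KD1 array, the fold there is a bound: at least 1.88-fold lower with KD1 than with Luc, taking the lowest detected signal of each KD1 array as the floor (fitted difference -1.48, adjusted p = 0.000276). With KD2 it fell 1.49-fold (log2 difference -0.57, SE 0.15, adjusted p = 0.0223). KD1 was at least 1.26-fold below KD2 (fitted difference -0.90, adjusted p = 0.0019). These bounds compare group means and make no allowance for the spread between arrays. Fewer cells with the transcript and less of it per cell cannot be told apart in bulk RNA.

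On the deposited normalized values, where dim probes are compressed, the KDM4A differences were -0.33 with KD1 (called) and -0.13 with KD2 (adjusted p = 0.167). The call with KD1 was kept whichever array was left out. The KDM4A call with KD2 was lost without KD2 replicate 2 (adjusted p = 0.0819), Luc replicate 1 (0.0614), Luc replicate 2 (0.0592) or Luc replicate 3 (0.0541), and without background correction (-0.21, adjusted p = 0.135).

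KDM3B, which removes methyl groups from H3K9, was the demethylase that rose with KD2. Its arrays read 8.48, 8.12 and 7.98 in KD1 and 8.67, 8.44 and 8.05 in KD2, against 7.71, 7.55 and 7.86 in Luc. Every array of either siRNA was above every Luc array. The difference was 0.68 with KD2 (SE 0.19, 1.6-fold, adjusted p = 0.0272) and 0.49 with KD1, which did not pass (95% interval 0.07 to 0.91, adjusted p = 0.11). The KDM3B call was lost without KD2 replicate 1, KD2 replicate 2, Luc replicate 1 or Luc replicate 2 (adjusted p 0.0669 to 0.0944), and with centring on the median of all probes (0.52, adjusted p = 0.0887).

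RIOX2, also called MINA, a JmjC hydroxylase of a ribosomal protein with reported activity on H3K9, had 6.35, 6.36 and 6.96 in KD1 and 6.21, 6.07 and 5.74 in KD2, against 6.82, 6.50 and 6.54 in Luc. The KD2 arrays lay below both other groups. It fell with KD2 (-0.61, SE 0.20, adjusted p = 0.0475), a call that was lost when any array except KD1 replicate 3 was left out (adjusted p 0.0508 to 0.153), without background correction (0.0587) and on the deposited values (0.0968). The remaining members of this group did not pass in any comparison. KDM2B, which binds CpG islands and acts on H3K36, differed by 0.14 with KD1 and 0.02 with KD2. KDM3A, an H3K9 demethylase known as a hypoxia target, differed by -0.04 and -0.16, and JMJD1C, its larger relative, by 0.19 and -0.26.

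No demethylase of H3K27 passed, beside 16.5% of all features with KD1 and 22.4% with KD2, and the spread was wide. KDM6A, or UTX, an X-linked H3K27 demethylase that sits in the KMT2C and KMT2D complexes, had 6.12, 7.24 and 5.68 in KD1 and 5.85, 6.48 and 6.21 in KD2, against 6.82, 5.79 and 5.67 in Luc. The groups overlapped throughout, and the 95% intervals of -0.63 to 1.15 with KD1 and -0.80 to 0.98 with KD2 left room for a change of either sign. PHF2, a PHD finger and JmjC protein linked to H3K9, did not pass with KD1 (0.15, adjusted p = 0.621) or with KD2 (-0.15, adjusted p = 0.603). KDM6B, whose product also acts on H3K27, had 5.58, 4.58 and 4.73 in KD1 and 4.53, 4.62 and 4.65 in KD2, against 4.68, 4.69 and 4.41 in Luc. Only the first of these values was detected, so no change could be measured.

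**Figure D3:**
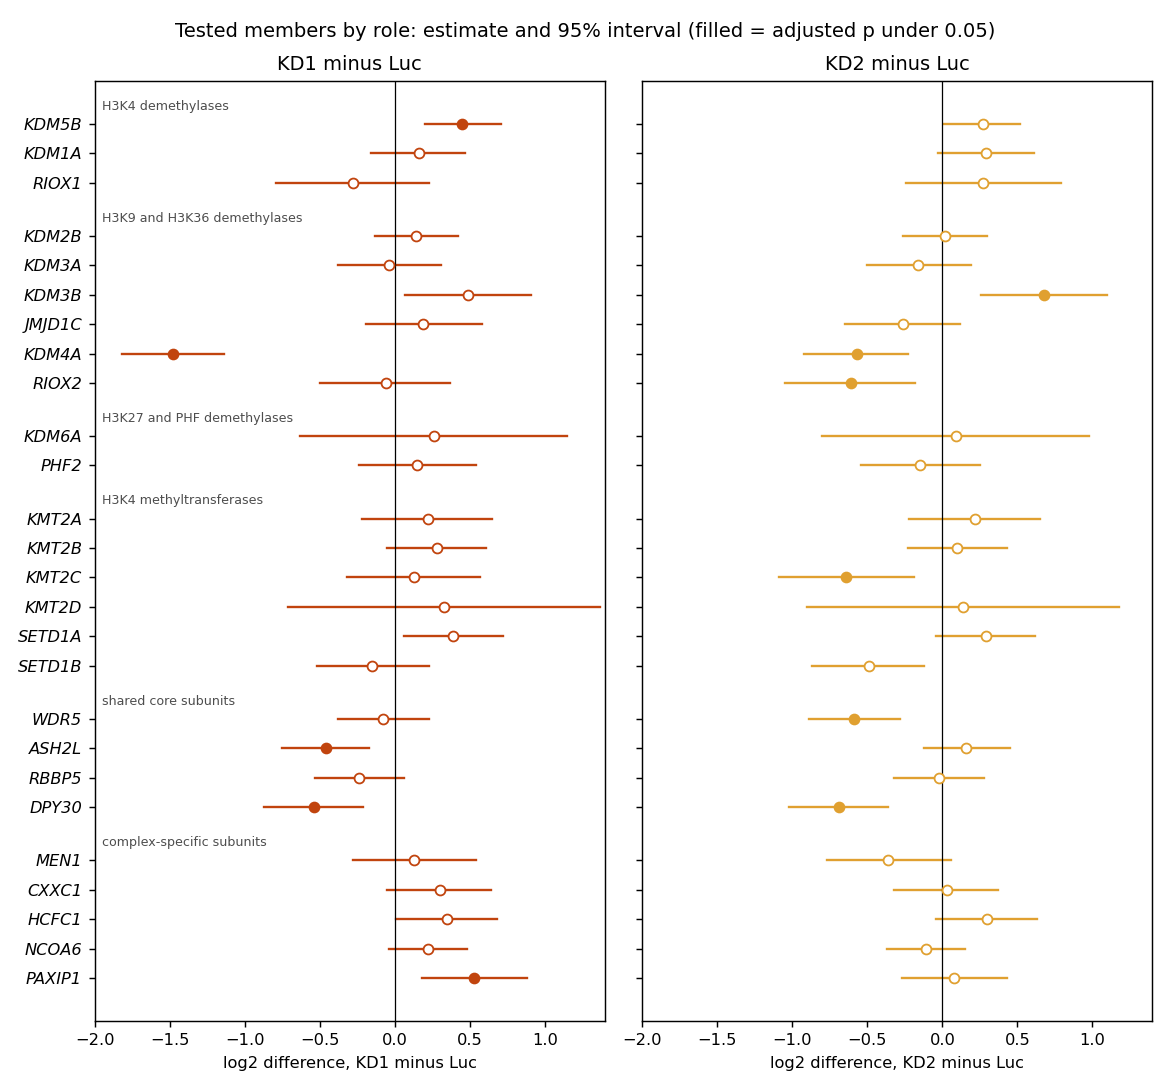
Log2 difference from Luc with its 95% interval for the 26 tested members, KD1 on the left and KD2 on the right, in order of role; filled points have an adjusted p under 0.05. KDM4A with KD1 (-1.48) is a fitted value for a group in which the probe was not detected, and most intervals cross 0.

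Of the 6 H3K4 methyltransferases, 0 passed with KD1 by limma (1 at an unadjusted p under 0.05), and KMT2C alone passed with KD2. Of all features, 16.5% passed with KD1 and 22.4% with KD2. KMT2C, or MLL3, monomethylates H3K4 at enhancers, and its arrays read 7.02, 6.81 and 7.37 in KD1 and 6.26, 5.99 and 6.65 in KD2, against 7.01, 6.73 and 7.08 in Luc. The KD2 arrays lay below all others, while KD1 and Luc overlapped. KMT2C fell with KD2 (-0.64, SE 0.20, adjusted p = 0.0439) and differed by 0.13 with KD1 (95% interval -0.32 to 0.57). The KD2 call was lost without KD1 replicate 1, KD2 replicate 1, KD2 replicate 2 or any Luc array (adjusted p 0.0535 to 0.146). Between the siRNAs KMT2C was 0.77 higher with KD1 (adjusted p = 0.0178), a call lost without KD1 replicate 3, KD2 replicate 1 or KD2 replicate 2 (adjusted p 0.0515 to 0.0669).

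The founding member of the family, KMT2A or MLL, had 6.97, 6.72 and 7.01 in KD1 and 6.80, 7.07 and 6.83 in KD2, against 6.24, 6.78 and 7.03 in Luc. Luc replicate 1 was the low array, and the differences were 0.22 with each siRNA (adjusted p = 0.498 and 0.479). KMT2B, its closest relative, differed by 0.28 with KD1 and 0.10 with KD2. KMT2D, or MLL4, was detected on only 1 array of each group, and its values ranged from 4.80 to 6.50 in KD1 and 4.56 to 6.09 in KD2, against 4.93 to 5.27 in Luc. SETD1A, which places much of the trimethyl mark at promoters, had 7.59, 7.54 and 7.94 in KD1 and 7.59, 7.57 and 7.60 in KD2, against 7.26, 7.12 and 7.50 in Luc. All arrays of both siRNAs were above the Luc arrays, yet neither difference passed (0.39, adjusted p = 0.104 with KD1, and 0.29, adjusted p = 0.2 with KD2). Its paralog SETD1B differed by -0.15 with KD1 and by -0.49 with KD2 (95% interval -0.87 to -0.12, adjusted p = 0.0617). SETD1B passed for KD2 without Luc replicate 3 (adjusted p = 0.0479) and with centring on the median of all probes (-0.61, adjusted p = 0.0294).

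Of the 4 shared core subunits, 2 fell with KD1, beside 9.27% of all features lower, and 2 fell with KD2, beside 11.5%; a set this small has no test of its own. DPY30, a small subunit that stimulates the enzymes through ASH2L, fell with both siRNAs. It had 10.93, 11.26 and 10.78 in KD1 and 10.90, 10.73 and 10.87 in KD2, against 11.66, 11.47 and 11.45 in Luc. No array of either siRNA reached a Luc array, and the siRNAs overlapped each other. The fall was 1.61-fold with KD2 (-0.69, SE 0.15, adjusted p = 0.00817), kept whichever array was left out, and 1.45-fold with KD1 (-0.54, SE 0.15, adjusted p = 0.0339). The KD1 call was lost without KD1 replicate 1, KD1 replicate 3 or any Luc array (adjusted p 0.0589 to 0.113). It was also lost with only the KD1 and Luc arrays fitted (0.0633), without the detection filter (0.0658) and with the replicate number as a block (0.053). Further losses came with centring on the median of the tested features (0.0734) and with the mean of the detected DPY30 probes (-0.30, adjusted p = 0.193).

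ASH2L, the subunit that DPY30 binds, had 9.21, 9.36 and 9.16 in KD1 and 9.67, 9.98 and 9.96 in KD2, against 9.67, 9.71 and 9.72 in Luc. The KD1 arrays lay below all others. It fell with KD1 (-0.46, SE 0.13, adjusted p = 0.0361) and differed by 0.16 with KD2 (95% interval -0.12 to 0.45, adjusted p = 0.409). ASH2L was lower with KD1 than with KD2 by test (-0.63, adjusted p = 0.00547), whichever array was left out. The call of ASH2L against Luc was lost without KD1 replicate 1, KD1 replicate 3 or any Luc array (adjusted p 0.078 to 0.106). WDR5, the scaffold that holds the catalytic subunit, moved with the other siRNA: its arrays read 9.03, 9.05 and 8.99 in KD1 and 8.71, 8.50 and 8.33 in KD2, against 8.93, 9.16 and 9.21 in Luc. The KD2 arrays lay below all others. WDR5 fell with KD2 (-0.59, SE 0.14, adjusted p = 0.0131) and was 0.51 higher with KD1 than with KD2 (adjusted p = 0.0214). The WDR5 call against Luc was lost without KD2 replicate 3 (adjusted p = 0.0502) or Luc replicate 2 (0.051), and that between the siRNAs without KD1 replicate 1, KD1 replicate 2, KD2 replicate 2 or KD2 replicate 3 (0.0546 to 0.076) and with centring on the median of all probes (0.121). RBBP5, the remaining subunit, had 8.04, 7.79 and 8.01 in KD1 and 8.31, 8.01 and 8.17 in KD2, against 8.28, 8.10 and 8.17 in Luc, and did not pass (-0.24 and -0.02).

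Of the 5 subunits found in some of these complexes and not in all, PAXIP1 alone passed, with KD1. The share of all features that passed was 16.5% with KD1 and 22.4% with KD2. PAXIP1, or PTIP, is found with KMT2C and KMT2D, and its arrays read 9.92, 9.58 and 9.83 in KD1 and 9.26, 9.22 and 9.49 in KD2, against 9.29, 9.00 and 9.44 in Luc. The KD1 arrays were above all others. The difference was 0.53 with KD1 (SE 0.16, adjusted p = 0.0431) and 0.08 with KD2 (adjusted p = 0.763). It was lost without KD1 replicate 1, KD1 replicate 3, KD2 replicate 1, KD2 replicate 2, Luc replicate 1 or Luc replicate 2 (adjusted p 0.0565 to 0.148), and with centring on the median of all probes (0.29, adjusted p = 0.205). MEN1, or menin, the partner of KMT2A and KMT2B, had 7.85, 7.91 and 7.88 in KD1 and 7.04, 7.56 and 7.59 in KD2, against 7.47, 7.75 and 8.03 in Luc, and did not pass (0.13 and -0.36, adjusted p = 0.691 and 0.202). CXXC1, which brings SETD1A and SETD1B to unmethylated CpGs, differed by 0.30 and 0.03. HCFC1, a host cell factor shared by several complexes, differed by 0.35 with KD1 (adjusted p = 0.15) and 0.30 with KD2 (0.193). NCOA6, of the KMT2C and KMT2D complexes, differed by 0.22 and -0.11.

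For 7 members more than 1 probe was detected on at least 3 arrays, and the probes of a gene did not always move alike. In a fit with each detected probe as its own feature, the second DPY30 probe gave -0.68 with KD2 (adjusted p = 0.0203), beside -0.69 for the brightest, but -0.06 with KD1 (adjusted p = 0.855), beside -0.54. A second RIOX2 probe gave -0.61 with KD2 (adjusted p = 0.0251), the same difference as the brightest one (-0.61, adjusted p = 0.0505 in this fit). Another RIOX2 probe was detected on the 3 Luc arrays and on no KD1 or KD2 array, so no size is given for it. For KMT2C the second detected probe, seen on 1 array of each group, gave -0.02 with KD2. A dim WDR5 probe, seen on 4 of 9 arrays, gave 0.44 with KD2 (adjusted p = 0.37), against -0.59 for the brightest. The detected probes of JMJD1C, PHF2 and MEN1 did not pass against Luc. A second JMJD1C probe gave 0.42 with KD1 and 0 with KD2, beside 0.19 and -0.26 for the brightest. A second PHF2 probe, seen on 6 of 9 arrays, gave -0.28 and -0.56, beside 0.15 and -0.15. Other MEN1 probes gave -0.03 and 0.46 with KD1, and 0.22 and -0.03 with KD2, beside 0.13 and -0.36 for the brightest. With the mean of a gene's detected probes, the KD2 differences of KMT2C and WDR5 were -0.33 and -0.07 and did not pass (adjusted p = 0.202 and 0.797). Their differences between the siRNAs were then 0.48 and 0.19 and did not pass (adjusted p = 0.0636 and 0.439).

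**Figure D4:**
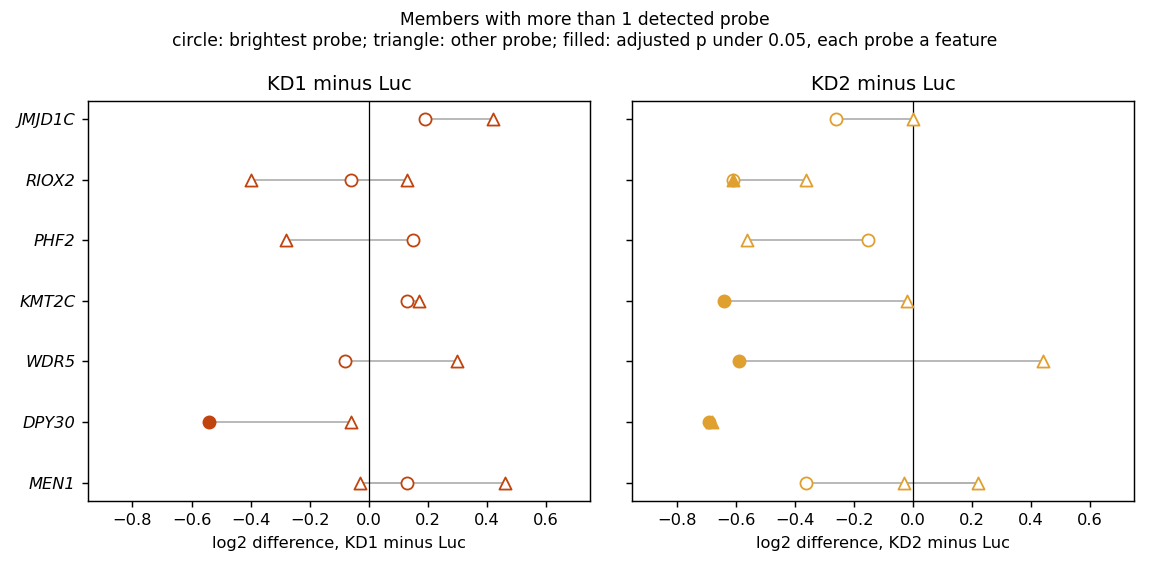
Log2 difference from Luc for each detected probe of the 7 members with more than 1, KD1 on the left and KD2 on the right; circles are the brightest probe, triangles the others, and filled symbols have an adjusted p under 0.05. The DPY30 probes coincide near -0.69 with KD2 and lie apart, at -0.54 and -0.06, with KD1.

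Other genes of the same pathways were read from 5 lists. Among 12 tested genes of the list of other histone lysine methyltransferases, 4 rose and 0 fell with KD1 (33.3%, beside 16.5% of all features). KMT5B, which dimethylates and trimethylates H4K20, rose by 1.2 on the log2 scale, and KMT5A, which places the first methyl group there, by 1.06, a call lost without Luc replicate 1 (adjusted p = 0.0524). SETDB1, an H3K9 methyltransferase, rose by 0.67 and SETD2, which trimethylates H3K36, by 0.58. The SETD2 call was lost without any KD1 array, KD2 replicate 1, KD2 replicate 3, Luc replicate 1 or Luc replicate 3 (adjusted p up to 0.113), so that 2 of the 4 calls remained without Luc replicate 1, and centring on the median of all probes lost both SETDB1 and SETD2. With KD2 1 rose and 1 fell (16.7%, beside 22.4%): SETMAR by -0.69 and KMT5B by 0.58. The SETMAR call was lost without KD2 replicate 1, KD2 replicate 3 or Luc replicate 2 (adjusted p up to 0.118), and the KMT5B call with KD2 without KD2 replicate 1, KD2 replicate 3, Luc replicate 1 or Luc replicate 2 (up to 0.128). The median difference of this list was 0.345 with KD1 and 0.0155 with KD2. Of 6 tested JmjC proteins outside the members, 1 rose with KD1 (16.7%) and 2 with KD2 (33.3%), and 0 fell with either. JARID2, a JmjC protein without demethylase activity that works with Polycomb repressive complex 2, rose by 1.15 with KD1 and 0.78 with KD2, whichever array was left out.

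Of 15 tested partners of KDM1A and the KDM5 enzymes, KD1 raised 1 and lowered 2 (20%, beside 16.5% of all features). KD2 raised 3 and lowered 1 (26.7%, beside 22.4% of all features). HMG20B, a CoREST subunit, rose by 0.60 with KD1 and 0.65 with KD2, and RBPJ, the DNA-binding protein of the Notch pathway, changed by -0.56 with KD1. RCOR2, a CoREST scaffold gene detected on no KD2 array, was at least 1.6-fold lower with KD2. That bound compares group means, without allowance for the spread between arrays. The HMG20B call with KD1 was lost without KD1 replicate 1, KD1 replicate 3, Luc replicate 1 or Luc replicate 2 (adjusted p up to 0.0809), and the RBPJ call without KD1 replicate 3, Luc replicate 1 or Luc replicate 2 (up to 0.079). Of 14 tested genes related to H3K4 methyltransferase complexes, 2 were higher and 0 lower with KD1 (14.3%, beside 16.5%). With KD2, 1 was higher and 3 were lower (28.6%, beside 22.4%). KAT8, an acetyltransferase that shares subunits with the KMT2A complex, rose by 0.61 with KD1 (adjusted p = 0.00882) and changed by -0.40 with KD2 (adjusted p = 0.0445). It was 1.01 higher with KD1 than with KD2 (adjusted p = 0.000296), and its KD2 call was lost without KD1 replicate 2, any KD2 array or any Luc array (adjusted p up to 0.121). TASP1, the protease that cleaves KMT2A, changed by -0.99 with KD2 (lost without Luc replicate 3, adjusted p = 0.0554), and BOD1 by -0.71. Of 12 tested readers of methylated H3K4, calls numbered 0 higher and 2 lower with KD1 (16.7%, beside 16.5%). With KD2 they numbered 1 higher and 2 lower (25%, beside 22.4%). ING3, of the NuA4 acetyltransferase complex, was lower with both siRNAs, by log2 differences of -0.58 for KD1 and -0.69 for KD2, and ZCWPW1 changed by -1.31 with KD2. With centring on the median of all probes the KD1 calls of KAT8 and HMG20B were lost, and with the mean of a gene's detected probes those of RBPJ and ING3. Over the 5 lists, 5 of 12 calls with KD1 and 6 of 15 with KD2 were kept whichever array was left out. Between the siRNAs, KD1 against KD2, the shares called in these lists were 41.7% for other methyltransferases, 50% for other JmjC proteins, 13.3% for the partners, 35.7% for the complex-related genes and 8.33% for the readers, beside 27.4% of all features.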

How the data were processed

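RNA of 9 samples was amplified and biotin-labelled (Ambion MessageAmp kit, per the labels' protocols). The deposited intensities are linear and not normalized, per the file headers, with a deposited detection p-value beside each. The authors also deposited log2 values, which have equal quantiles on every array (median 7.602). The submitters' processing notes name lumi, without steps.

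The intensities were background-corrected, quantile-normalized and put on the log2 scale with neqc (offset 16) of limma 3.58.1 in R 4.3.3. Platform symbols were updated through Entrez identifiers (RefSeq table of GRCh38.p14, names only): of 48799 probes 28094 had 1 symbol, 13 several and 20692 none. The brightest probe stood for a symbol. Features with detection (p under 0.05) on 3 or more arrays, 13076 in all, entered 1 linear model (lmFit, eBayes) with 3 group means and 6 residual degrees of freedom. Tests were two-sided, with Benjamini-Hochberg adjustment over all features and a threshold of 0.05. With 3 arrays a side an exact permutation p is at least 0.1, so none is given. The fit was tested on simulated data, and the number of arrays limits the precision.

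The members and lists were chosen with earlier results of these data known. Called members, and 13 members listed by name where measured, are given by array, and up to 4 called genes of each further list are named by size. Alternatives varied background, offset, scaling, source, filter, probe choice, arrays fitted, replicate block and fold threshold, and left out each array. No per-sample column was left unused.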

Additional observations from a re-analysis of the deposited data

Results flagged for a closer look

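For 4 members, each by its brightest probe, the effects of the siRNAs against Luc differed by the test of KD1 against KD2. They are given here as the effect of KD1 minus the effect of KD2 on the log2 scale. KDM4A differed by a fitted -0.90 and was detected on no KD1 array. Its bound, from group means without allowance for the spread between arrays, was at least 1.26-fold lower with KD1 than with KD2. The deposited values gave -0.20, and a fall was called for each siRNA. KMT2C differed by 0.77 and WDR5 by 0.51, with a fall called for KD2 in each case. With the mean of a gene's detected probes, KMT2C differed by 0.48 (adjusted p = 0.0636) and WDR5 by 0.19 (0.439), and neither passed. ASH2L differed by -0.63, with a fall called for KD1. With each detected probe as its own feature, a second probe also differed for DPY30 (0.62, adjusted p = 0.0271) and RIOX2 (0.75, adjusted p = 0.00858). The brightest probes of these genes did not pass between the siRNAs. Groups of 3 arrays are too small for a test of single outlying arrays.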

How the results depend on the processing

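Of the 15 calls among members, 4 were kept under all 20 alternatives in which the gene could be tested: KDM4A with KD1, DPY30 with KD2, and KDM4A and ASH2L in KD1 against KD2. No called value changed sign. Of the uncalled values, 3 of 21 with KD1, 2 of 20 with KD2 and 6 of 22 between the siRNAs passed under some alternative. These were KDM3B, RBBP5 and HCFC1 with KD1, and KDM5B and SETD1B with KD2. Between the siRNAs they were RIOX1, JMJD1C, RIOX2, MEN1, NCOA6 and PAXIP1. Without the detection filter the KD1 calls of ASH2L, DPY30 and PAXIP1 were lost (adjusted p 0.0658 to 0.0853). So were the KD2 calls of KDM3B, RIOX2 and KMT2C (0.0551 to 0.1). With only the compared groups fitted, KDM5B, DPY30 and PAXIP1 lost their KD1 calls (0.0525 to 0.0685). The KD2 call of RIOX2 was lost with the replicate block (0.0758) and that of KMT2C on the deposited values (0.0603). Centring on the tested features lost ASH2L with KD1 (0.0514) and RIOX2 with KD2 (0.0565). Members called with KD1 against Luc numbered 5 of 26, beside 2157 of 13076 features. Without the detection filter they were 2 of 34, beside 1542 of 39555 features. With only those groups fitted they were 2 (1809 of 13076 features). They were 3 when the log2 difference also had to reach 0.5 in size (1912 features). They were also 3 with arrays centred on the median of the tested features (2403 features), a scaling added after seeing the data. With KD2 against Luc, 6 of 26 (beside 2927 of 13076 features) became 3 of 34 without the detection filter (beside 2274 of 39555). In KD1 against KD2, 4 of 26 members were called, beside 3579 of 13076 features. They became 9 without background correction (4170 features), 8 with an offset of 50 (3963) and 7 on the deposited values (4023). With detection on all 9 arrays, 8 of 23 members were called, beside 3562 of 9422 features. Leaving out 1 array gave 1 (without KD1 replicate 1, Luc replicate 1 or Luc replicate 2) to 5 members with KD1, 1 (without Luc replicate 2) to 6 with KD2, and 3 to 4 between the siRNAs. Calls among all features then ran from 1381 (without Luc replicate 2) to 2058 with KD1, 2025 to 2962 with KD2 and 2781 to 3448 between the siRNAs, in place of 2157, 2927 and 3579. The causes were not tested. Centring on the tested features gave 1422 higher and 981 lower with KD1 and 1781 and 1332 with KD2. Centring on all probes gave 1066 and 2130 between the siRNAs, in place of 1737 and 1842. With the replicate block, members called were 4, 5 and 6 and all features 1977, 2793 and 3376, and the numbers were not taken to pair the arrays: deviations of same-numbered arrays from their group means correlated at -0.0237 to 0.107 over 9 pairs, and in 9 of 18 cases an array correlated best with its own number. Probes near background, such as KDM4A, KMT2D and SETD1B, limit what can be measured.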
